A study of Arabidopsis thaliana with 16 samples.

Results

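Transcripts of the plant U-box (PUB) ubiquitin ligase genes were examined in Arabidopsis thaliana suspension cells exposed to TA or IXB, compounds that the study describes as inhibitors of cellulose synthesis. The genes were taken by symbol, PUB followed by a number, from probe sets of the Affymetrix ATH1 array that are annotated to exactly 1 gene. The rule uses no measured value, but the family was picked with earlier results of these data known. This gave 9 genes with 1 probe set each, out of 13355 genes that have a probe set of a single gene. They are PUB15 (AT5G42340), PUB19 (AT1G60190), PUB22 (AT3G52450), PUB23 (AT2G35930), PUB24 (AT3G11840), PUB25 (AT3G19380), PUB26 (AT1G49780), PUB43 (AT1G76390) and PUB49 (AT5G67530). The gene table used here lists 23 genes of this kind, and the remaining 14, among them PUB12, PUB13 and SAUL1, were not analysed here.

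Ubiquitin ligases (E3) choose the proteins to which ubiquitin is attached, receiving it from a ubiquitin-conjugating enzyme (E2), and proteins that carry ubiquitin chains are often degraded by the proteasome. In the U-box class the E2 is bound by a small fold related to the RING finger, and plants have many more such genes than yeast or animals. Several members are best known for restraining the response to microbial patterns, and transcripts of some of these respond quickly to elicitors and to water or salt stress.

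The cells were of the ecotype Landsberg erecta and grew in the dark in a medium containing the synthetic auxin 2,4-D. One group received 2 µM TA, another 100 nM IXB, and the control group methanol alone. Methanol is the solvent of both compounds, and 20 µL of it went to every culture, treated or not. Contact lasted 6 h and began on day 3 after sub-culture, when exponential growth starts. There were 4 replicates per group, each pooled from 2 flasks of 100 mL. TA and IXB are commonly used abbreviations of thaxtomin A and isoxaben, which is general knowledge and not given in the labels. Nothing says whether the replicates came from separate parent cultures, so a p-value here reflects only how far these samples spread, which may be technical. In a culture measured in bulk, fewer cells of a type and less RNA per cell cannot be told apart.

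The 12 arrays were deposited as 2 sets of 8 columns of log2 values, TA with methanol and IXB with methanol, and the methanol scans are the same 4 in each set but were normalized with different partners. Column medians were 4.76 to 4.85 in the TA set and 5.20 to 5.30 in the IXB set, so levels are compared only within a set. Changes are differences of log2 values tested with limma over 22746 probe sets, called at a Benjamini-Hochberg adjusted p under 0.05. Limma draws the spread of each gene toward that of all probe sets, so its SEs and intervals do not rest on the gene's own arrays alone. Of the markers of other cell types, 2 root hair genes and 1 guard cell gene had means of 2.82 to 3.02 in methanol cells of the TA set, all dim (a mean under 5), and 1 photosynthetic gene, RCA, had 9.13. The xylem list had 0 measured genes. Of 3 measured genes of dividing cells, AUR2 and TOPII fell with TA, by 0.54 and 0.44 on the log2 scale (limma adjusted p = 2.30e-04 and 0.00936), and their part in the results below was not tested.

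With TA, 4 of the 9 PUB transcripts rose (PUB22, PUB23, PUB43 and PUB24) and 0 fell by limma. At an unadjusted p under 0.05 there were 5 higher, PUB15 being added, and 0 lower. Over all probe sets 5.41% were called higher and 4.7% lower with TA. On the same 4 genes every TA array lay above every methanol array, and 16% of all probe sets had groups that did not overlap in either direction. With IXB 1 of 9 rose, PUB23, and 0 fell by limma, where 2.2% of all probe sets were called higher and 0.809% lower. At an unadjusted p under 0.05 there were 3 higher with IXB, PUB22, PUB23 and PUB49, and 0 lower. These counts come from the fit without pairs. With the replicate number as a block, 2 of 9 rose with IXB, PUB22 and PUB23, against 2.75% of all probe sets. For 2 of 9, PUB23 and PUB49, the IXB arrays did not overlap with methanol, against 11.6% of all probe sets. The median change of the 9 transcripts was 0.23 with TA and 0.11 with IXB on the log2 scale, beside -0.014 and -0.012 over all probe sets. The 2 compounds share their methanol arrays, so a gene's changes with TA and with IXB are not independent of each other.

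**Figure D1:**
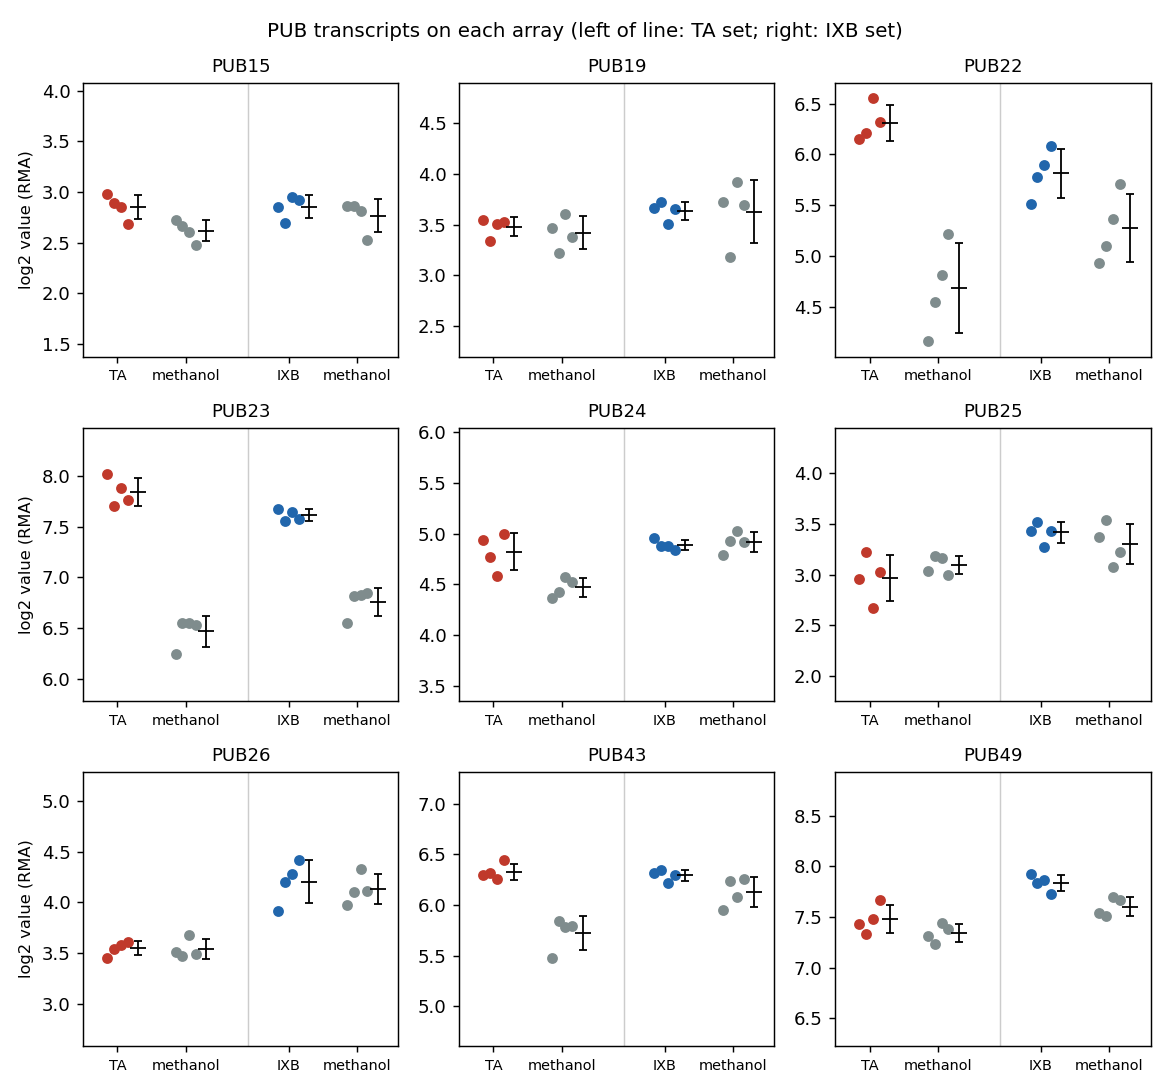
Log2 values (RMA) of the 9 PUB transcripts on every array. In each panel TA (red) and methanol (grey) of the TA set lie left of the line and IXB (blue) and methanol of the IXB set right of it, points are replicates 1 to 4 from left to right, and bars show the mean ± SD (n = 4). Each panel covers the same height on the log2 scale but starts at its own level. TA points lie above all methanol points for PUB22, PUB23, PUB24 and PUB43, and IXB points do so for PUB23 and PUB49.

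PUB22, PUB23 and PUB24 are related ligases known as a triplet that acts together to dampen immunity triggered by microbial patterns. PUB22 had log2 values of 6.15, 6.21, 6.56 and 6.32 in TA cells, against 4.16, 4.54, 4.81 and 5.22 in the methanol cells of the TA set. The methanol arrays were spread over more than a log2 unit while the TA arrays stayed close together, and the groups did not overlap. PUB22 averaged 6.31 ± 0.18 with TA and 4.68 ± 0.45 with methanol (SD, n = 4 each). It rose by 1.63 on the log2 scale (SE 0.18), 3.09-fold with a 95% interval of 2.37 to 4.04 (limma adjusted p = 5.87e-05). This was the change ranked 97 from the top among 22746 probe sets.

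PUB22 is the member whose methanol arrays differed most among themselves. Their SD of 0.45 in the TA set exceeded that of 99.6% of probe sets, whose median SD was 0.11, and the SD of 0.34 in the IXB set exceeded that of 98.3%, with a median of 0.12. Since these are the same scans, replicate 1 was lowest and replicate 4 highest in both sets. The limma SE and interval of PUB22 are drawn toward the smaller spread of other probe sets. An ordinary linear model, which uses only the gene's own spread, gave the TA change an adjusted p of 0.0188. Leaving out any 1 array kept the TA call, and the change stayed between 1.45 and 1.81 over all alternatives.

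PUB22 also had higher log2 values in IXB cells, 5.51, 5.77, 5.89 and 6.09, against 4.93, 5.10, 5.37 and 5.71 in the methanol cells of the IXB set. The groups overlapped, since the highest methanol array lay above the lowest IXB array. The difference was 0.54 on the log2 scale (SE 0.16, 95% interval 0.19 to 0.89), or 1.46-fold, and did not pass the test (limma adjusted p = 0.102). Each IXB array was nevertheless above the methanol array of its own replicate number, by 0.58, 0.68, 0.53 and 0.38. With the replicate number as a block in the fit PUB22 passed (limma adjusted p = 0.00371). Leaving out methanol replicate 4 gave 0.69 and an adjusted p of 0.0338, and over all alternatives the adjusted p ran from 0.00371 to 0.295. The labels do not say that a number marks a shared culture. Deviations of same-numbered IXB and methanol arrays from their group means correlated at 0.101 to 0.147 over all probe sets, and 2 of 4 IXB arrays correlated best with their own number.

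**Figure D2:**
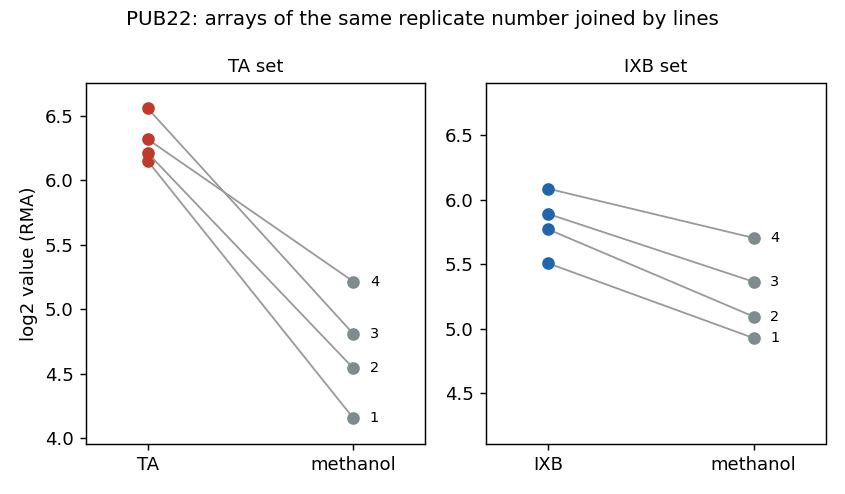
Log2 values (RMA) of PUB22 on the TA or IXB arrays (left in each panel) and on the methanol arrays of the same set (right), with lines joining arrays of the same replicate number, which is printed at the methanol point. The 4 lines of the IXB set run side by side, with differences of 0.38 to 0.68. Those of the TA set differ more, from 1.10 to 1.99. Only the IXB numbers met the rule for pairs, and narrowly, with a lowest correlation of 0.101 against a limit of 0.1.

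PUB23 is the closest relative of PUB22 in the triplet, and both are also known from the drought response. Its log2 values were 8.02, 7.71, 7.88 and 7.76 in TA cells, against 6.24, 6.55, 6.55 and 6.53 in methanol cells of the TA set. They were 7.67, 7.55, 7.65 and 7.58 in IXB cells, against 6.55, 6.82, 6.82 and 6.85 in methanol cells of the IXB set. Neither treated group overlapped with its methanol arrays. Replicate 1 was the lowest methanol array in each set, and the same scan therefore enters both comparisons. PUB23 rose by 1.37 on the log2 scale with TA (SE 0.10), 2.59-fold with a 95% interval of 2.24 to 2.99 (limma adjusted p = 9.99e-07). With IXB it rose by 0.85 (SE 0.08), 1.81-fold with an interval of 1.60 to 2.04 (limma adjusted p = 9.52e-05). Both calls held under every alternative run, with adjusted p values of at most 0.00197 for TA and 0.0137 for IXB.

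PUB24, the remaining gene of the triplet, had log2 values of 4.94, 4.77, 4.59 and 4.99 in TA cells, against 4.37, 4.42, 4.57 and 4.53 in methanol cells of the TA set. The groups did not overlap, but the lowest TA array and the highest methanol array, 4.59 and 4.57, were almost level. PUB24 rose by 0.35 on the log2 scale with TA (SE 0.10), 1.27-fold with an interval of 1.10 to 1.47 (limma adjusted p = 0.0356). This call was lost when any of TA replicates 1, 2 and 4 or methanol replicates 1, 2 and 4 was left out, with adjusted p values of 0.0622 to 0.104. In IXB cells its values of 4.84 to 4.96 lay within the range of the methanol cells of that set, 4.79 to 5.03, and the difference was -0.03 (95% interval -0.18 to 0.13, limma adjusted p = 0.893). With a mean of 4.77 over all columns PUB24 is under the level of 5 called dim here, where 49.7% of all probe sets lie. It is 1 of 5 such members, beside PUB15, PUB19, PUB25 and PUB26. PUB22, at 5.52 over all columns, is not among them, but its methanol mean in the TA set was 4.68.

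PUB43 encodes a U-box protein with armadillo repeats that is related to SAUL1, a ligase known for preventing premature senescence. Its log2 values were 6.30, 6.32, 6.26 and 6.44 in TA cells, against 5.48, 5.84, 5.78 and 5.79 in methanol cells of the TA set. All TA arrays lay within a narrow band above the methanol arrays. PUB43 rose by 0.61 on the log2 scale with TA (SE 0.09), 1.52-fold with an interval of 1.33 to 1.74 (limma adjusted p = 7.74e-04). In IXB cells it had 6.31, 6.35, 6.21 and 6.29, against 5.94, 6.24, 6.08 and 6.26 in methanol cells of that set, and these groups overlapped. The difference of 0.16 (95% interval -0.02 to 0.34) did not pass the test (limma adjusted p = 0.337).

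PUB49 joins a U-box to a cyclophilin-type peptidyl-prolyl isomerase domain. It had log2 values of 7.92, 7.84, 7.86 and 7.72 in IXB cells, against 7.54, 7.51, 7.70 and 7.67 in methanol cells of the IXB set, and the groups did not overlap. The difference of 0.23 (95% interval 0.07 to 0.40) did not pass the test over all probe sets (limma adjusted p = 0.134). In TA cells PUB49 had 7.43, 7.33, 7.48 and 7.66, against 7.32, 7.24, 7.44 and 7.38 with methanol, and there the groups overlapped, with a difference of 0.13 (95% interval -0.05 to 0.32, limma adjusted p = 0.422).

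PUB25 and PUB26 are close relatives known to act on BIK1, a cytoplasmic kinase of immune receptors, and to control how much of it accumulates. PUB25 ranged from 2.67 to 3.22 in TA cells, against 3.00 to 3.18 in methanol cells of the TA set, and from 3.27 to 3.52 in IXB cells, against 3.07 to 3.53. PUB26 ranged from 3.45 to 3.61 in TA cells, against 3.47 to 3.68, and from 3.92 to 4.42 in IXB cells, against 3.98 to 4.33. All 4 pairs of groups overlapped. The TA differences were -0.13 for PUB25 (95% interval -0.36 to 0.10) and 0.01 for PUB26 (95% interval -0.16 to 0.17), and the IXB differences were 0.11 and 0.08. The lowest adjusted p among them was 0.566 (limma).

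PUB19, known with its relative PUB18 for dampening responses to abscisic acid and drought, ranged from 3.34 to 3.55 in TA cells, against 3.22 to 3.61 in methanol cells of the TA set. In IXB cells it ranged from 3.51 to 3.72, against 3.18 to 3.92 in methanol cells of that set. Its differences were 0.06 with TA (95% interval -0.14 to 0.26) and 0.01 with IXB (95% interval -0.28 to 0.29), with limma adjusted p values of 0.779 and 0.985. PUB15, a U-box protein with armadillo repeats, ranged from 2.69 to 2.98 in TA cells, against 2.48 to 2.73 in methanol cells, and only its lowest TA array lay among the methanol values. The TA difference of 0.23 (95% interval 0.05 to 0.42) did not pass the test (limma adjusted p = 0.115), nor did the IXB difference of 0.09 (limma adjusted p = 0.678).

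**Figure D3:**
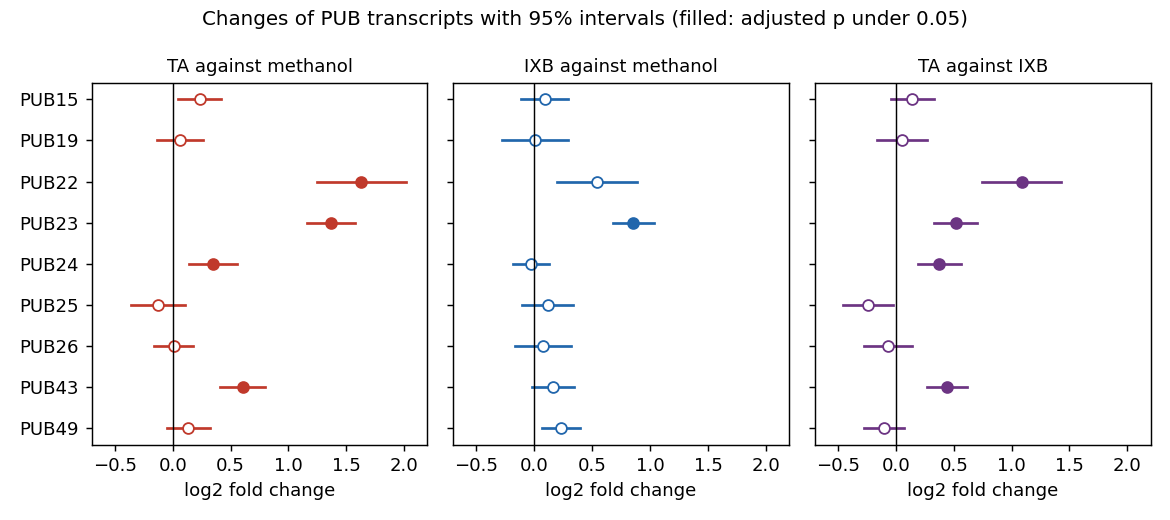
Log2 fold changes of the 9 PUB transcripts for TA against methanol, IXB against methanol and TA against IXB, with 95% intervals from limma (n = 4 arrays per group). Filled points passed an adjusted p of 0.05 over all probe sets: PUB22, PUB23, PUB24 and PUB43 for TA against methanol and for TA against IXB, and PUB23 for IXB against methanol. The fits are without pairs, and with the replicate number as a block PUB22 passed for IXB too.

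The compounds were set against each other on changes from methanol, since the sets differ in level. Doses differed (2 µM TA, 100 nM IXB), so compound and dose cannot be told apart. Of the 9 transcripts 4 were higher with TA than with IXB (PUB22, PUB23, PUB43 and PUB24) and 0 were lower by limma, with 1, PUB25, lower at an unadjusted p under 0.05. Over all probe sets 2.72% were called higher and 2.05% lower, and 11.6% had groups that did not overlap, as did these 4 members. The values set side by side are deviations of each array from the mean of the methanol columns in its set.

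For PUB22 the deviations were 1.47, 1.53, 1.88 and 1.64 on TA arrays and 0.24, 0.50, 0.62 and 0.81 on IXB arrays. Every TA array was well above every IXB array, and TA exceeded IXB by 1.09 on the log2 scale (SE 0.16, 95% interval 0.74 to 1.43, limma adjusted p = 0.00110). This difference ranked 37 from the top among 22746 probe sets. PUB23 deviated by 1.55, 1.24, 1.41 and 1.29 on TA arrays and by 0.92, 0.79, 0.89 and 0.82 on IXB arrays, a difference of 0.52 (SE 0.09, 95% interval 0.33 to 0.70, limma adjusted p = 0.00287). Both compounds thus had PUB23 above methanol, TA more so.

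PUB43 deviated by 0.58, 0.59, 0.54 and 0.72 on TA arrays and by 0.19, 0.22, 0.09 and 0.16 on IXB arrays. Its difference was 0.44 (SE 0.08, 95% interval 0.27 to 0.61, limma adjusted p = 0.00531). PUB24 deviated by 0.47, 0.30, 0.11 and 0.52 on TA arrays and by 0.04, -0.04, -0.04 and -0.07 on IXB arrays. Its difference was 0.38 (SE 0.09, 95% interval 0.19 to 0.56, limma adjusted p = 0.0229), and TA replicate 3 lay close to the IXB arrays. The other 5 members did not pass, with differences from -0.24 for PUB25 (95% interval -0.46 to -0.03, limma adjusted p = 0.199) to 0.14 for PUB15 (95% interval -0.04 to 0.33, limma adjusted p = 0.399).

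The 2 versions of a methanol scan were not identical after normalization, and this fit takes their means as exact. In an alternative chosen after seeing the data, the error of matching the versions was added to the limma SE, and a t test was run on the widened SE. Its adjusted p was 0.00826 for PUB22, 0.0163 for PUB23 and 0.0308 for PUB43, while PUB24 at 0.0723 no longer passed. Over all probe sets that setting called 1.07% higher and 0.317% lower. The call of PUB24 was also lost without TA replicate 1 or 4 or IXB replicate 2 or 4, with limma adjusted p values of 0.0532 to 0.0664.

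The order of the 3 groups was TA, IXB, methanol for PUB22 and PUB23. For PUB23 each step passed the test, and for PUB22 the step between IXB and methanol passed only with the replicate block or without methanol replicate 4. For PUB43 and PUB24 TA stood above IXB and methanol, and no difference between those passed. The 5 remaining members had no step that passed.

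**Figure D4:**
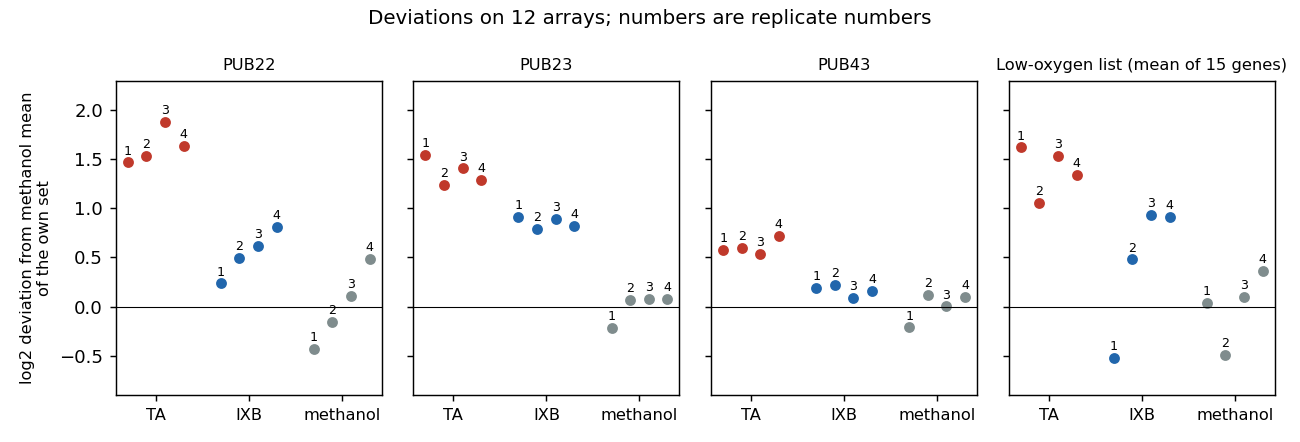
Log2 deviation of each of the 12 arrays from the mean of the methanol columns in its set for PUB22, PUB23, PUB43 and the mean of 15 low-oxygen genes, with TA in red, IXB in blue, methanol in grey and the replicate number above each point. PUB23 is at 0.79 to 0.92 on all IXB arrays, while PUB22 runs from 0.24 to 0.81 and the low-oxygen mean from -0.52 to 0.94 on the same arrays.

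Core low-oxygen genes, transcripts known to rise when plant cells run short of oxygen, moved with TA as well. Of 29 such genes written 15 were measured. With TA 14 of 15 rose and 0 fell by limma, against 5.41% and 4.7% of all probe sets. At an unadjusted p under 0.05 also 0 were lower, and the median change was 1.46. CML38, encoding a calmodulin-like protein, rose by 2.64 (limma adjusted p = 1.57e-05), AT5G66985 by 2.10 (limma adjusted p = 3.56e-04) and AT5G10040 by 2.05 (limma adjusted p = 5.81e-04). With IXB 0 of 15 passed by limma, where 2.2% of all probe sets were called higher and 0.809% lower. At an unadjusted p under 0.05 there were 4 higher, and the median change was 0.49. TA exceeded IXB for 6 of 15, against 2.72% of all probe sets. With the error of the methanol versions added these were 4 of 15 and 1.07%.

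The mean deviation of the low-oxygen genes was 1.62, 1.06, 1.54 and 1.34 on TA arrays, -0.52, 0.48, 0.94 and 0.91 on IXB arrays, and 0.04, -0.49, 0.10 and 0.36 on methanol arrays. By this measure IXB replicate 1 lay just below the lowest methanol array, at -0.52 against -0.49. It was the IXB array with the highest PUB23 deviation, 0.92, and the lowest PUB22 deviation, 0.24. On TA arrays the order was another: replicate 1 had the highest low-oxygen mean, 1.62, and the lowest PUB22 deviation, 1.47. In methanol the low-oxygen mean was lowest in replicate 2 and PUB22 in replicate 1, while both were highest in replicate 4, at 0.36 and 0.48. Without IXB replicate 1 the PUB22 change with IXB was 0.64 (limma adjusted p = 0.0770). The part of a low-oxygen response in the PUB changes was not tested beyond these values.

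Another 25 loci, written down as U-box genes from general knowledge and not described as such in the annotation used here, were measured, 15 of them dim. With TA 2 of 25 rose and 0 fell by limma, against 5.41% and 4.7% of all probe sets, a difference that was not tested. At an unadjusted p under 0.05 there were 4 higher and 4 lower, and the median change was 0.03. AT1G23030 had 8.14, 8.51, 8.27 and 8.35 in TA cells, against 7.58, 7.86, 7.72 and 7.60 in methanol cells, and rose by 0.62 (limma adjusted p = 8.90e-04). It was also the 1 locus of the 25 that rose with IXB, to 8.88, 8.79, 8.62 and 8.47, against 7.87, 8.16, 7.94 and 7.93 with methanol, a change of 0.72 (limma adjusted p = 0.00175). These groups did not overlap in either set. AT5G09800, a dim probe set, rose by 0.51 with TA (limma adjusted p = 0.00575).

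Between the compounds, AT2G45910 was 0.34 higher with TA than with IXB (limma adjusted p = 0.0341) and AT5G40140 was 0.39 lower (log2 change -0.39, limma adjusted p = 0.0215). These are 1 of 25 in each direction, against 2.72% of all probe sets higher and 2.05% lower. From methanol, AT2G45910 differed by 0.13 with TA and -0.21 with IXB, and AT5G40140 by -0.07 and 0.32. None of these passed (limma adjusted p from 0.1155 to 0.740). With the error of the methanol versions added 0 of the 25 passed, against 1.07% and 0.317% of all probe sets. MAC3A and MAC3B, U-box proteins of the spliceosome-associated MOS4 complex, changed by -0.19 and -0.21 with TA and did not pass (limma adjusted p = 0.160 and 0.174).

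Partners of the U-box ligases were measured in small numbers. RPN12a, a lid subunit of the proteasome known as a target of PUB22 and PUB23, differed by -0.21 with TA (limma adjusted p = 0.121) and by -0.20 with IXB (limma adjusted p = 0.264). It and the other 2 measured proteasome subunits did not pass with either compound, with 1 lower with TA and 2 lower with IXB at an unadjusted p under 0.05. BIK1 differed by -0.002 with TA (limma adjusted p = 0.992), EFR, the receptor of bacterial elongation factor Tu, by -0.14 (limma adjusted p = 0.361) and WRKY22, a transcription factor of pattern-triggered signalling, by 0.26 (limma adjusted p = 0.147). Of the 4 measured genes of that immune list, out of 35 written, 3 were dim, EFR and WRKY22 among them. With TA or IXB 0 of the 4 passed by limma, and at an unadjusted p under 0.05 there was 1, WRKY22 with TA.

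Of 27 genes written for abscisic acid signalling 1 was measured. This was COR47, a dehydrin induced by cold and drought, which rose by 0.82 with TA (limma adjusted p = 1.11e-05) and differed by 0.35 with IXB (limma adjusted p = 0.0616).

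Among 12 measured ubiquitin-conjugating enzymes, the E2 proteins that load E3 ligases, UBC16 rose by 0.51 (limma adjusted p = 0.00818) and UBC22 fell by 0.32 (limma adjusted p = 0.0241) with TA, and the median change was 0.02. These are 1 of 12 in each direction, where 5.41% of all probe sets were called higher and 4.7% lower. With IXB 0 of 12 passed by limma, 3 being lower at an unadjusted p under 0.05. Of 3 measured ATL genes, which encode RING-type ligases anchored in membranes, 2 were dim. With either compound 0 of the 3 passed by limma, also 0 at an unadjusted p under 0.05. The largest change with TA was 0.31 for ATL5 (limma adjusted p = 0.323). The polyubiquitin list had 0 measured genes.

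Likeness of pattern was described by Pearson's r over the deviations of the 12 arrays, among 13354 other genes. The 12 points fall into the 3 groups, so r reflects the group means above all, and no test is given. Most like PUB22 were AT3G23170 (r = 0.98), AT1G15010 (r = 0.98), CML38 (r = 0.97) and AT2G22880 (r = 0.96). Most like PUB23 were AT2G47550, AT5G25440, BGLU46 (a beta-glucosidase) and TET9 (a tetraspanin), all with r = 0.99. Most like PUB43 were AT1G62840 (r = 0.97), MT1C (a metallothionein, r = 0.94), AT3G62260 (r = 0.94) and AT1G22510 (r = 0.94).

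Among the members themselves r was 0.93 between PUB22 and PUB43, 0.89 between PUB22 and PUB23, 0.88 between PUB23 and PUB43 and 0.85 between PUB24 and PUB43. PUB43 ranked 28 among the genes most like PUB22, whereas PUB23 ranked 80. After the group means were removed r was 0.36 for PUB22 with PUB43, 0.32 for PUB22 with PUB23, 0.38 for PUB23 with PUB43 and 0.53 for PUB24 with PUB43. Within the triplet PUB24 had r = 0.72 with PUB22 and r = 0.66 with PUB23 over the 12 arrays, and -0.08 and 0.35 after the group means were removed.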

How the data were processed

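Each of 12 samples of total RNA was measured on an Affymetrix ATH1 array. The deposited log2 values come from RMA run by the authors, as the submitters' processing notes record, with no version or settings given in the sources used here. RMA scales arrays alike, so an overall shift of a group is not visible. The 64 Affymetrix controls among 22810 probe sets were removed.

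Probe sets were named from the platform annotation, which lists 14016 of the 22746 tested, 13513 with a single gene, and 13436 of these matched the TAIR10.1 gene table, used for names only. Each comparison with methanol was fitted within its set of 8 columns with limma 3.58.1 (lmFit and eBayes, two-sided) in R 4.3.3. TA against IXB used 12 arrays, each minus the mean of the methanol columns in its set, with the 2 versions of a methanol scan averaged and counted once. Deviations of matched versions correlated at 0.807 to 0.873, and of unmatched ones at -0.510 to 0.015. Scripts were tested on simulated data. Tables and figures used Python 3.11.15, pandas 2.3.3, numpy 2.4.6 and matplotlib 3.10.9.

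The members and lists were chosen with earlier results of these data known. All 9 PUB genes taken by symbol are named, and up to 4 further U-box loci. Of other lists, up to 3 members with the largest called TA change are named, or else the 1 with the largest change. The 4 genes most like each of PUB22, PUB23 and PUB43 are named too. BIK1, EFR, MAC3A, MAC3B, AUR2, TOPII and RCA were added outside this rule. The fits reported are without pairs, and the replicate number as a block is an alternative. Same-numbered arrays met the rule for pairs where every correlation of their deviations exceeded 0.1. This held narrowly for IXB with methanol (0.101 to 0.147) but not for TA with methanol (-0.06 to 0.29). Alternatives were a replicate block, other eBayes priors, an ordinary linear model, array weights, filters on dim or cross-binding probe sets, renormalization, a stricter threshold, other sets of arrays or scales, and each array left out. The number of arrays limits the precision.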

Additional observations from a re-analysis of the deposited data

Results flagged for a closer look

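In 36 groups of 4 arrays, formed by the 9 PUB transcripts, 3 held an array far from the other 3, where chance alone gives about 1 in 20. PUB23 was low in methanol replicate 1, at 6.24 (TA set) and 6.55 (IXB set), which is 1 scan normalized in each set. PUB15, a dim transcript, was low in methanol replicate 4 of the IXB set, at 2.52.

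The changes from methanol differed between TA and IXB, by a test of the difference itself, for PUB22 (1.09 on the log2 scale), PUB23 (0.52), PUB43 (0.44) and PUB24 (0.38). For each of them every TA array deviated more from methanol than every IXB array. Doses of TA and IXB differ, and the PUB24 difference did not pass once the error of the methanol versions was added (t test on the widened SE, adjusted p = 0.0723).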

How the results depend on the processing

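Over 570 recomputed changes of the 9 transcripts, 552 kept their side of the threshold, 16 lost a call, 2 gained one and 0 called ones reversed; 13 uncalled ones near 0 changed sign. All 16 lost calls were of PUB24. Besides the arrays named above, its TA call was lost with an intensity trend (limma adjusted p = 0.0632), an ordinary linear model (0.126) and a threshold of 0.01, and its TA against IXB call with an ordinary linear model (0.0579) and that threshold. PUB22, PUB23 and PUB43 kept their TA calls (adjusted p at most 0.0197) and their TA against IXB calls (at most 0.0308). With the replicate block 2 of 9 rose with IXB, PUB22 and PUB23, in place of 1; leaving out an array gave 1 to 2. The block changed no other call, with 4 PUB genes higher with TA and 4 higher with TA than IXB, as without it, although the numbers of the TA arrays do not pair by the rule used. Counts for TA and for TA against IXB were 3 to 4 under all alternatives. Without dim probe sets 4 of the 9 members remained, of which 3 rose with TA, 1 rose with IXB and 3 were higher with TA than IXB. The shares of all remaining probe sets called under this filter are not given, so these counts have no background beside them. That filter uses treated and methanol columns together. PUB22, whose methanol mean in the TA set was 4.68, passed it there only through its TA arrays. For its TA call this setting is therefore no separate check, nor is it for its TA against IXB call, where the same TA arrays enter the filter. Rescaling the IXB set or normalizing all 16 columns together gave PUB22 a TA against IXB difference of 0.89 to 1.20. Adding the error of the methanol versions left 243 probe sets higher and 72 lower between TA and IXB, against 618 and 467. The alternative with every probe set of a gene gave nothing new, since each member has 1. By the mean over all columns 5 of 9 members were dim, and how far dim signal limits the changes was not tested.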
